A study of Homo sapiens with 16 samples.

Results

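The 8 genes described here encode the transcription factor NRF2 (NFE2L2), its relative NRF1 (NFE2L1), proteins that set how long NRF2 lasts (KEAP1, CUL3 and SQSTM1) and the small MAF proteins it pairs with on DNA (MAFG, MAFF and MAFK). They were chosen by their known role in the NRF2 pathway, out of 25221 genes in the count table, at a time when earlier results of these data, higher NRF2 target genes after Ro, were known. No measured threshold chose them, so no values lie just inside or just outside a limit. Because that choice had the Ro comparison in view, the values of these 8 genes under Ro are given as a description without a test, and the comparison of the cell lines under DMSO is the one that was tested. All 8 genes reached the count minimum, 10 counts in 4 of 8 libraries, in both lines, as 14320 of all genes did.

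RNA was measured in 2 human leukemia cell lines, MOLM13, from monocytic acute myeloid leukemia, and K562, from chronic myeloid leukemia in blast crisis. Cells of either line received 20 µM Ro 08-2750 (Ro), a small molecule that inhibits RNA binding by the Musashi proteins, or the vehicle DMSO, for 4 h, with DMSO at a final 0.1%. Each of the 4 groups (MOLM13 DMSO, MOLM13 Ro, K562 DMSO and K562 Ro) held 4 libraries, numbered as pairs 1 to 4 in the labels, and no group carried an engineered allele in the labels. Each line stands for 1 leukemia, so a difference between the lines cannot be told apart from anything else that differed between their cultures.

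NRF2 switches on genes for glutathione and thioredoxin chemistry, NADPH supply and heme breakdown. In resting cells KEAP1 binds newly made NRF2 and presents it to a CUL3 ubiquitin ligase, so NRF2 protein is short-lived. Oxidants and electrophiles that modify KEAP1 cysteines stop this, and SQSTM1 (p62) can remove KEAP1 through autophagy. NRF2 then binds the antioxidant response element together with a small MAF protein. Control of NRF2 is thus largely at the level of protein, which RNA counts do not measure, and SQSTM1 and MAFG are themselves known as NRF2 target genes.

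Total counts per library ranged from 8611944 to 39978791 in MOLM13 and from 3143129 to 43571060 in K562, where DMSO replicates 2 and 4 had the lowest totals, 3143129 and 4383241. Levels are in CPM, counts scaled to a common library size, after TMM scaling of all 16 libraries together. The kit reads each mRNA at its 3′ end, so CPM are not divided by transcript length. Levels of different genes still depend on how the reads were assigned: in MOLM13 DMSO the ferritin gene FTH1 was at a mean of 0.672 CPM beside 435 CPM for its partner FTL, so an order of genes is an order of counted reads. The line labels were checked against 8 marker genes per line. The summed level of the 8 MOLM13 markers was 601 to 745 CPM in MOLM13 and 134 to 266 CPM in K562, with HOXA9 at 33.7 to 76.9 CPM in MOLM13 and 0 counts in K562. The monocyte marker CD14 was at or near 0 in both lines, at most 0.298 CPM in MOLM13, and CSF1R, a myeloid receptor listed for MOLM13, also stood at 92.7 to 218 CPM in K562. CD33, also listed for MOLM13, did not separate the lines, at 8.67 to 24.8 CPM in MOLM13 and 8.8 to 17.9 CPM in K562. The 8 K562 markers summed to 1490 to 2870 CPM in K562 and 2.63 to 6.2 CPM in MOLM13, and the embryonic globin gene HBE1 had 0 counts in every library.

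In both lines the 8 genes fell into 6 that were plainly measured and 2 that were low. In MOLM13 DMSO the order of mean levels was CUL3 at 99.5 CPM, MAFG at 95 CPM, KEAP1 at 68.7 CPM, NFE2L2 at 59.7 CPM, NFE2L1 at 46.1 CPM, SQSTM1 at 37.9 CPM, MAFF at 3.2 CPM and MAFK at 0.931 CPM. In K562 DMSO the order was KEAP1 at 79.3 CPM, NFE2L1 at 73.1 CPM, MAFG at 69.5 CPM, CUL3 at 65.5 CPM, NFE2L2 at 54.8 CPM, SQSTM1 at 53.8 CPM, MAFF at 3.46 CPM and MAFK at 0.591 CPM. From the first to the sixth gene, neighbours in either order had overlapping ranges over the 4 libraries and were not separated by their spread. SQSTM1 and MAFF, and MAFF and MAFK, did not overlap in either line. MAFG made up 85.3% to 97.3% of the reads of the 3 small MAF genes over the 16 libraries.

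**Figure D1:**
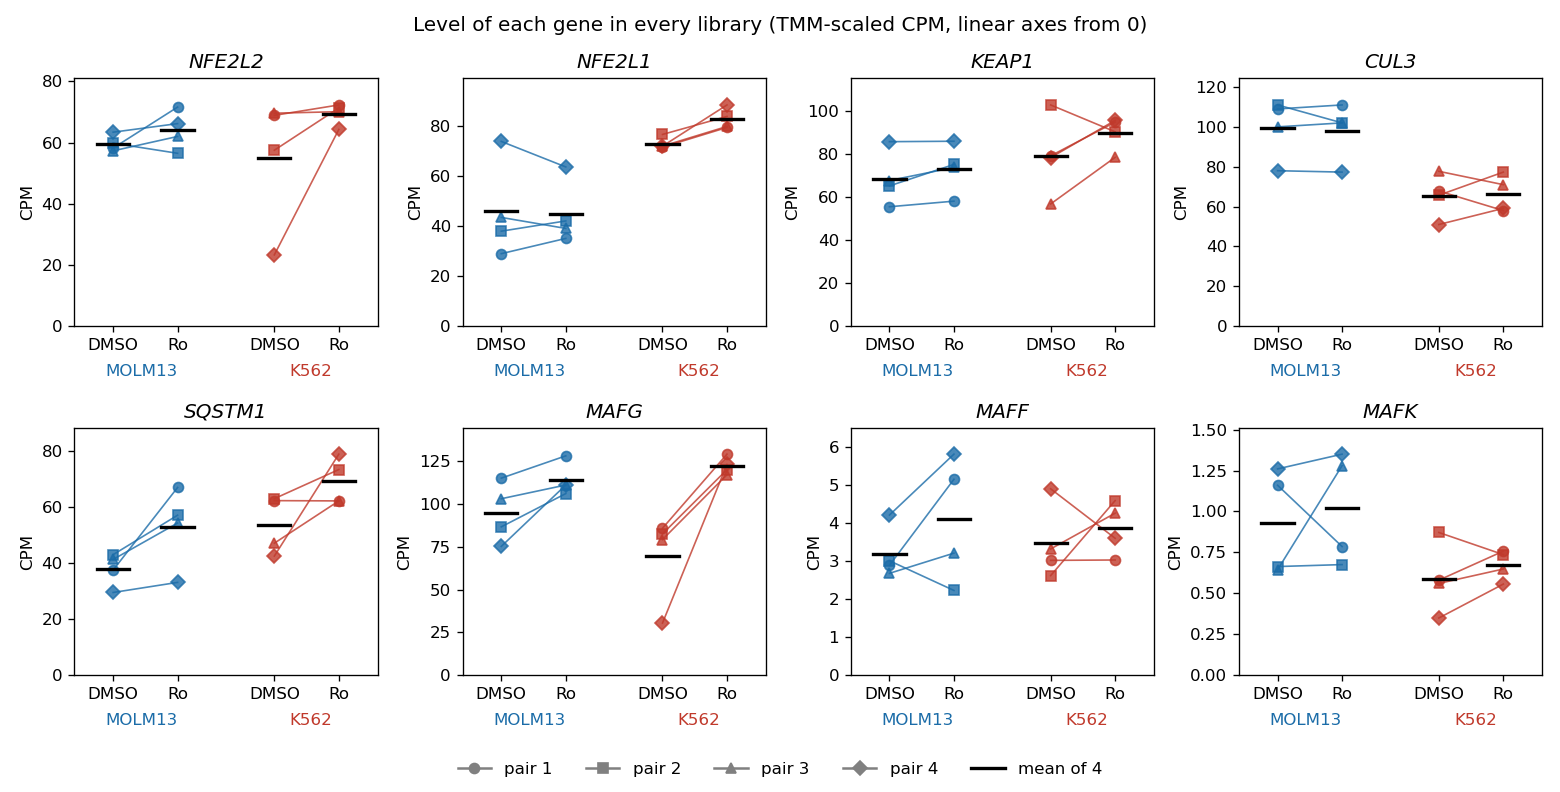
Level of each of the 8 genes in every library, in TMM-scaled CPM on linear axes that start at 0, with MOLM13 in blue and K562 in red. Symbols mark pairs 1 to 4, thin lines join the DMSO and Ro library of a pair, and black bars are means of 4 libraries. In K562 the 4 Ro libraries of MAFG at 117 to 129 CPM lie above the 4 DMSO libraries at 30.5 to 85.8 CPM. Those of NFE2L1 at 79.5 to 88.5 CPM lie above DMSO at 71.6 to 76.7 CPM. Such groups were found for 0.584% of all genes tested in K562.

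NFE2L2 (Entrez 4780, chr2:177227595-177392697, minus strand, GRCh38, GENCODE gene model) encodes NRF2 itself. In MOLM13 its level was 58.2, 59.8, 57.3 and 63.4 CPM in the DMSO libraries of pairs 1 to 4 and 71.6, 56.5, 62 and 66.2 CPM in the Ro libraries. The 2 groups overlapped, and the Ro library was the higher of the pair in 3 of 4 pairs. On the log2 scale the fitted fold change was 0.12 (SE 0.13), and 0.11 (SE 0.076) with the pair as a block, a fit that compares libraries within pairs.

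In K562 the level of NFE2L2 was 68.9, 57.5, 69.6 and 23.3 CPM with DMSO and 72.3, 71.3, 70.1 and 64.3 CPM with Ro. The DMSO library of pair 4 lay well below the other 3, and the pair changes on the log2 scale were 0.07, 0.31, 0.01 and 1.46. Fitted over the line, the log2 fold change was 0.34 (SE 0.27), or 0.44 (SE 0.238) with the block. Without the DMSO library of pair 4 the unblocked value was 0.09 (SE 0.13), so most of the K562 difference of NFE2L2 rested on that library. Fitted to pairs 1 and 3 alone, the blocked value was 0.02 (SE 0.09).

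NFE2L1 (Entrez 4779, chr17:48048329-48061487, plus strand) encodes NRF1, a membrane-bound relative of NRF2 that is released and processed when the proteasome is impaired. MOLM13 showed 29, 38, 43.5 and 73.9 CPM with DMSO and 35.1, 42.1, 39.1 and 63.7 CPM with Ro. Pair 4 was the highest of its group in both treatments, and the pair changes went in both directions, so the spread between pairs was larger than any change within them. The fit gave a log2 fold change of -0.02 (SE 0.28) without and 0 (SE 0.085) with the block.

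In K562 NFE2L1 was steadier, at 71.6, 76.7, 72 and 72 CPM with DMSO and 79.5, 83.9, 79.9 and 88.5 CPM with Ro. The Ro library was higher in all 4 pairs and the groups of 4 did not overlap. The size was small, with a fitted log2 fold change of 0.19 (SE 0.14), and 0.19 (SE 0.126) with the block. Fitted to pairs 1 and 3 alone, the blocked value was 0.14 (SE 0.09).

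KEAP1 (Entrez 9817, chr19:10486120-10503741, minus strand) encodes the adaptor that holds NRF2 to the ubiquitin ligase. Its RNA in MOLM13 was 55.6, 65.3, 67.8 and 85.9 CPM with DMSO and 58.2, 75.3, 73.9 and 86.1 CPM with Ro. The Ro library was the higher in all 4 pairs, in pair 4 by too little to show at 2 decimals of the log2 scale, and the groups overlapped. Over the 4 pairs the fit gave a log2 fold change of 0.11 (SE 0.16), and 0.11 (SE 0.072) with the block.

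KEAP1 in K562 was 79.3, 103, 56.9 and 78.5 CPM with DMSO and 95, 90.5, 78.6 and 95.8 CPM with Ro. It was higher with Ro in 3 of 4 pairs and lower in pair 2, whose DMSO library was the smallest of all. The fitted log2 fold change was 0.2 (SE 0.19), and 0.22 (SE 0.148) with the block. In pairs 1 and 3 alone, the pairs whose DMSO libraries were deep, the blocked value was 0.35 (SE 0.09).

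CUL3 (Entrez 8452, chr2:224470150-224585397, minus strand) encodes the scaffold of the ligase that ubiquitinates NRF2. MOLM13 held 109, 111, 100 and 78 CPM with DMSO and 111, 102, 102 and 77.3 CPM with Ro. K562 held 67.8, 65.7, 77.7 and 51 CPM with DMSO and 58, 77.3, 71 and 59.1 CPM with Ro. In both lines 2 of 4 pairs were higher with Ro, and the fitted log2 fold changes were 0 (SE 0.17) in MOLM13 and 0.02 (SE 0.18) in K562. Without the block, CUL3 had the fitted value closest to 0 of the 8 genes in both lines. With it the values were -0.01 (SE 0.07) in MOLM13, where NFE2L1 was at 0, and 0.03 (SE 0.142) in K562. The blocked value of CUL3 in K562 pairs 1 and 3 alone was -0.19 (SE 0.09). Its 3′ end overlaps the noncoding gene AC073052.2 on the opposite strand by 4351 bases, and that gene was not analysed here.

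SQSTM1 (Entrez 8878, chr5:179806398-179838078, plus strand) encodes p62, the autophagy receptor that sequesters KEAP1. In MOLM13 it stood at 37.6, 43.1, 41.4 and 29.6 CPM with DMSO and at 67.1, 57.2, 54.4 and 33.2 CPM with Ro. The Ro library was higher in all 4 pairs, by 0.83, 0.41, 0.39 and 0.17 on the log2 scale, yet the groups overlapped because both libraries of pair 4 were the lowest of their group. Its fitted log2 fold change was 0.5 (SE 0.23), and 0.45 (SE 0.089) with the block.

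SQSTM1 in K562 stood at 62.4, 63.1, 47.2 and 42.6 CPM with DMSO and at 62.3, 73.5, 62.3 and 79 CPM with Ro. Pair 1 showed no difference at 2 decimals and the other 3 pairs were higher with Ro, by 0.22, 0.4 and 0.89 on the log2 scale. The fitted log2 fold change was 0.37 (SE 0.18), and 0.38 (SE 0.167) with the block, which became 0.21 (SE 0.11) without pair 4. Fitted to pairs 1 and 3 alone, the blocked value was 0.18 (SE 0.1). The 3′ end of SQSTM1 lies over that of MRNIP on the opposite strand, by 2946 bases. MRNIP had a mean of 4.81 CPM in MOLM13 DMSO and 6.86 CPM in MOLM13 Ro, far below SQSTM1, with a blocked log2 fold change of 0.58 (SE 0.14) in MOLM13 and 0.04 (SE 0.26) in K562. Whether counting used the strand is not given in the sources used here, so the part of MRNIP reads in the SQSTM1 values was not tested.

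MAFG (Entrez 4097, chr17:81918270-81927714, minus strand) encodes the small MAF with the most counted reads here, a partner without an activation domain of its own. In MOLM13 its level was 115, 86.6, 103 and 75.2 CPM with DMSO and 128, 106, 111 and 111 CPM with Ro. Every pair was higher with Ro, by 0.16, 0.29, 0.1 and 0.57 on the log2 scale, and the groups overlapped. Its fitted log2 fold change was 0.28 (SE 0.16), and 0.3 (SE 0.078) with the block.

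In K562 MAFG was 85.8, 82.5, 79.2 and 30.5 CPM with DMSO and 129, 120, 117 and 123 CPM with Ro. The lowest Ro library lay above the highest DMSO library, and the pair changes were 0.59, 0.54, 0.57 and 2.01 on the log2 scale. The fitted log2 fold change of 0.82 (SE 0.27), or 0.91 (SE 0.252) with the block, was the highest of the 8 genes in either line.

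The DMSO library of pair 4 set much of that value. It had 174 counts of MAFG, and without it the unblocked log2 fold change was 0.58 (SE 0.13). Without the whole of pair 4 the blocked value was 0.57 (SE 0.09), close to the changes of the other 3 pairs. With pairs 1 and 3 alone it was also 0.57 (SE 0.09). That same library was the lowest of its group for 5 of the 8 genes and the highest for 1, MAFF.

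The last 3054 bases of the MAFG gene model overlap SIRT7 on the same strand, so reads over this stretch could be counted for either gene. SIRT7, a sirtuin deacetylase, had means of 56.5 CPM in MOLM13 DMSO and 49.4 CPM in MOLM13 Ro, and of 58.8 and 54.6 CPM in K562. Its pair changes were -0.15, 0.03, -0.04 and -0.45 in MOLM13 and -0.2, -0.01, 0.2 and -0.35 in K562, so SIRT7 was higher with Ro in 2 of the 8 pairs in which MAFG was. How the authors assigned reads in the shared stretch is not given in the sources used here.

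MAFF (Entrez 23764, chr22:38200767-38216511, plus strand) encodes an inducible small MAF. It was at 2.89, 3.01, 2.68 and 4.21 CPM in MOLM13 DMSO and at 5.15, 2.23, 3.21 and 5.81 CPM in MOLM13 Ro. In K562 it was at 3.02, 2.62, 3.32 and 4.9 CPM with DMSO and 3.03, 4.59, 4.26 and 3.6 CPM with Ro. The groups overlapped in both lines with 3 of 4 pairs higher. The fitted log2 fold changes were 0.36 (SE 0.3) in MOLM13 and 0.18 (SE 0.25) in K562.

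MAFK (Entrez 7975, chr7:1530714-1543043, plus strand), the third small MAF, had between 2 and 44 counts in a library. Its means were 0.931 ± 0.322 CPM (SD, n = 4) in MOLM13 DMSO, 1.02 ± 0.343 CPM in MOLM13 Ro, 0.591 ± 0.214 CPM in K562 DMSO and 0.675 ± 0.0919 CPM in K562 Ro. The fitted log2 fold changes, 0.21 (SE 0.34) in MOLM13 and 0.23 (SE 0.32) in K562, were smaller than their standard errors at this depth. The K562 DMSO libraries of pairs 2 and 4 held 3 and 2 counts, at or under the 3 counts needed to tell a gene from 0, a limit for counting error only. MAFK overlaps TMEM184A at its 3′ end, on the opposite strand and by 809 bases. TMEM184A was about as low as MAFK, with means of 0.421 CPM in MOLM13 DMSO and 0.779 CPM in MOLM13 Ro, and its part in the MAFK values was not tested.

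**Figure D2:**
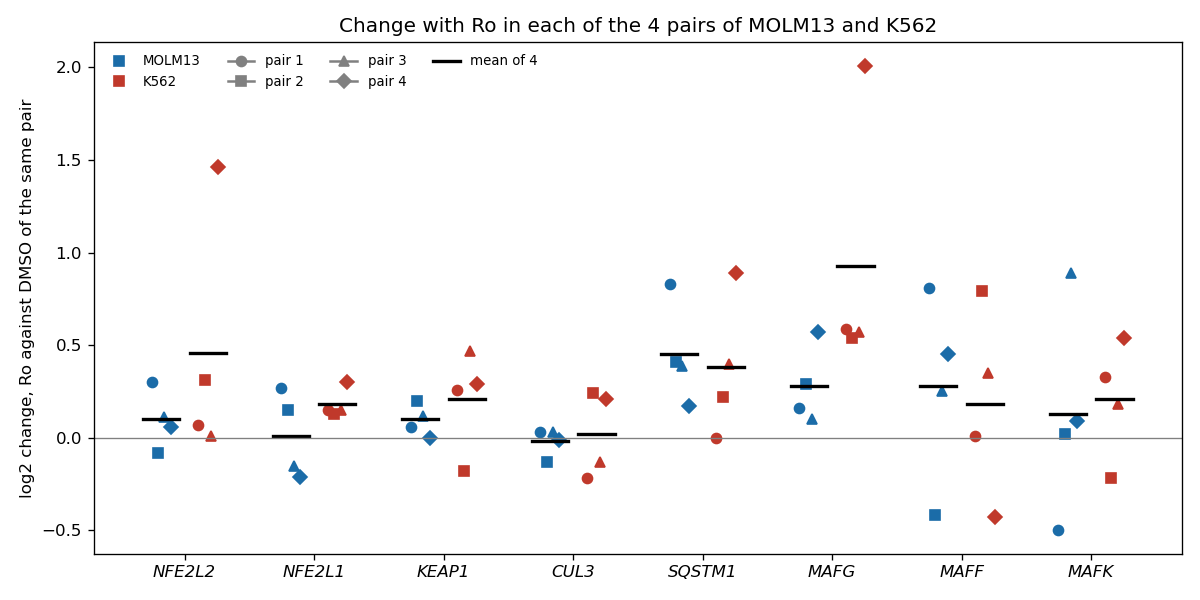
Log2 change of each gene from the DMSO to the Ro library of the same pair (prior count 2), with MOLM13 in blue, K562 in red, a symbol per pair and black bars for the mean of 4 pairs. MAFG lies above 0 in all 8 pairs, between 0.1 and 2.01, and K562 pair 4 gives the highest value of NFE2L2, NFE2L1, SQSTM1 and MAFG. The MAFK points of K562 pairs 2 and 4 rest on 3 and 2 DMSO counts.

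Counted over the 8 genes, MOLM13 had 3 (KEAP1, SQSTM1 and MAFG) that were higher with Ro in all 4 pairs, beside 10.2% of the 15031 genes tested, and 0 that were lower in all 4, beside 14.9%. K562 had 3 (NFE2L2, NFE2L1 and MAFG) that were higher in all 4 pairs, beside 6.84% of 15227 genes, and 0 lower in all 4, beside 4.64%. MAFG was the only one of the 8 genes higher in all 8 pairs of both lines, as were 138 of the 14320 genes tested in both (0.964%). The groups of 4 did not overlap, with Ro higher, for 0 of 8 genes in MOLM13 (0.665% of all genes) and 2 of 8 in K562, NFE2L1 and MAFG (0.584%). Since the genes were chosen with these contrasts in view, nothing is read from these counts.

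Side by side, the Ro change of MAFG was larger in K562 than in MOLM13 by 0.55 (SE 0.34) on the log2 scale, or 0.62 (SE 0.28) with pairs as blocks. Without the K562 DMSO library of pair 4 it was 0.31, and leaving out any other single library kept it between 0.45 and 0.67. For the other 7 genes the differences in Ro change without the block lay between -0.16 and 0.23 and were smaller than their standard errors of 0.26 to 0.47. With pairs as blocks NFE2L2 (0.33, SE 0.27) and NFE2L1 (0.18, SE 0.15) exceeded their standard errors, and KEAP1, CUL3, SQSTM1, MAFF and MAFK did not. Over the alternatives run, the difference of NFE2L2 ranged from -0.01 to 0.38 and that of NFE2L1 from -0.1 to 0.44, so the sign of either could turn. These differences are made of contrasts that were in view when the genes were chosen, so they too are given without a test.

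The comparison of K562 DMSO with MOLM13 DMSO did not enter the choice of the genes and asks how the pathway stands in each line before Ro. CUL3 was lower in K562 than in MOLM13, with 65.5 ± 11 against 99.5 ± 15.1 CPM (SD, n = 4), a log2 difference of -0.6 (SE 0.21, edgeR adjusted p 0.0337). Each K562 library, at 51 to 77.7 CPM, lay below each MOLM13 library, at 78 to 111 CPM, by a gap of under 1 CPM. The call was close to the threshold: without the MOLM13 DMSO library of pair 1, 2 or 3, or without the K562 DMSO library of pair 1, the adjusted p was 0.0763, 0.0928, 0.0758 and 0.0784, at log2 differences of -0.57, -0.56, -0.61 and -0.62. Under total-count scaling, which put the median log2 difference of all genes at 0.408, the difference of CUL3 was -0.2 with an adjusted p of 0.447.

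None of the other 7 genes passed, so 0 were called higher in K562, where 20.3% of all 15268 genes were, and 1 was called lower, where 21.1% were. In all 1 of 8 was called beside 41.3% of all genes. As shares of a library made from many cells of 1 line, these levels cannot tell fewer cells with an RNA from less of it per cell. NFE2L1 had the largest difference in the other direction, 73.1 ± 2.43 CPM in K562 against 46.1 ± 19.5 CPM in MOLM13, a log2 difference of 0.65 (SE 0.26) with an adjusted p of 0.064. That gene passed, at 0.97 and an adjusted p of 0.00145, without the MOLM13 DMSO library of pair 4, the one with 73.9 CPM.

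SQSTM1 was at 53.8 ± 10.5 CPM in K562 and 37.9 ± 6.03 CPM in MOLM13, a log2 difference of 0.5 (SE 0.21) with an adjusted p of 0.0744 that became 0.03, at 0.59, without the K562 DMSO library of pair 4. MAFG differed by -0.45 (SE 0.3, adjusted p 0.244) and MAFK by -0.7 (SE 0.38, adjusted p 0.167). KEAP1 differed by 0.19 (SE 0.23, adjusted p 0.534), MAFF by 0.08 (SE 0.28, adjusted p 0.845) and NFE2L2 by -0.12 (SE 0.29, adjusted p 0.773). Under total-count scaling the sign of NFE2L2 turned, to 0.26, and NFE2L1, KEAP1 and SQSTM1 passed as higher in K562, at 1.06, 0.6 and 0.89. With that scaling 71.2% of the genes called were higher in K562, against 49.1% with TMM.

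**Figure D3:**
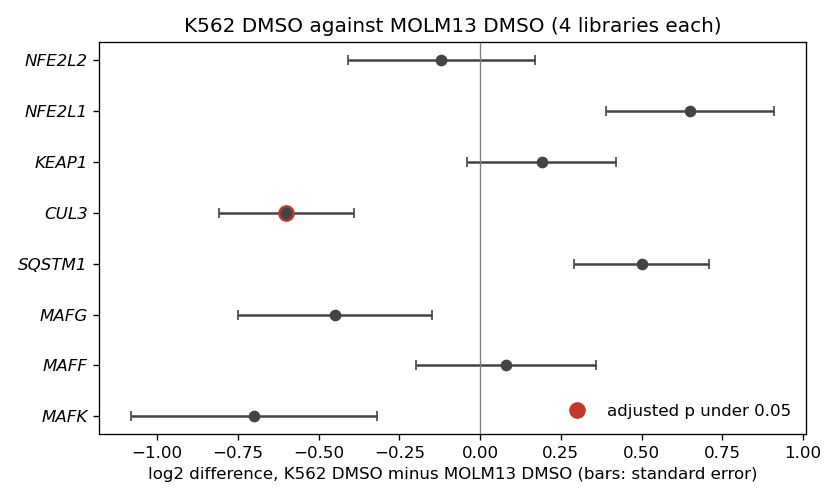
Log2 difference of each gene between the DMSO libraries of the lines, K562 minus MOLM13, for 4 libraries per line. Bars are 1 standard error, derived from the F statistic of the edgeR fit. CUL3 at -0.6, circled in red, is the only gene past an adjusted p of 0.05, and NFE2L1 at 0.65 and SQSTM1 at 0.5 lie on the other side of 0 without passing.

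Other genes of the pathway were followed in lists written by role, with edgeR's quasi-likelihood test adjusted over all genes. The lists were chosen with earlier results of these data known, so list genes called under Ro are not independent evidence. Without the block 0% of all genes passed in MOLM13 and 0% in K562, with 126 genes higher and 49 lower in MOLM13, and 52 and 135 in K562, by unadjusted p under 0.05. With the block 2.11% of all genes passed in MOLM13, 141 higher and 176 lower, and 0% in K562, with 129 higher and 193 lower by unadjusted p under 0.05. Among the 8 listed bZIP relatives of NRF2 (NFE2, NFE2L3, the BACH repressors and large MAF proteins), 6 were tested in MOLM13 and 7 in K562, and 0 passed in either line with or without the block. The largest blocked changes were those of NFE2, the erythroid relative, at -0.33 (SE 0.108, adjusted p 0.123) in MOLM13 and of MAF at -0.76 (SE 0.529, adjusted p 0.947) in K562. In the DMSO comparison 3 of 6 were higher in K562 and 0 lower, beside 20.3% and 21.1% of all genes. The 3 were NFE2 (log2 difference 2.06, adjusted p 1.79e-04), BACH2 (1.33, adjusted p 6.99e-04) and MAF (1.27, adjusted p 0.0313). BACH2 was named after its values were seen.

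Of the 8 partners of the CUL3 ligase, such as RBX1 and the enzymes that attach NEDD8 to cullins, 7 were tested. With the block 1 fell in MOLM13, NAE1, a subunit of the NEDD8-activating enzyme, by 0.34 on the log2 scale (SE 0.075, adjusted p 0.0201), lower in all 4 pairs at means of 130 ± 46.4 CPM with DMSO and 104 ± 46.7 CPM with Ro. Without the block 0 passed, and in K562 0 passed in either fit. DCUN1D1, a NEDD8 ligase for cullins, had the largest blocked value there at 0.2 (SE 0.14, adjusted p 0.947). Between the DMSO groups 2 of 7 were higher in K562 and 2 lower, beside 20.3% and 21.1% of all genes. NAE1 (1.06, adjusted p 0.00396) and UBE2M (1.29, adjusted p 0.00494) were higher, and UBA3 (-0.9, adjusted p 0.00288) and CAND1 (-0.99, adjusted p 0.00162) were lower. The last 3 were named after their values were seen.

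Among 8 genes of other routes that degrade NRF2, by beta-TrCP and by HRD1, 1 rose in MOLM13 with the block and 0 passed without it. The 1 was GSK3B, the kinase that marks NRF2 for beta-TrCP, at 0.28 (SE 0.073, adjusted p 0.0433) with the block and higher in all 4 pairs. In K562, where 0 passed, GSK3B was at -0.15 (SE 0.17, adjusted p 0.947) and higher in 1 of 4 pairs. Of 6 proteins that compete for KEAP1 0 passed in either line, with DPP3 at 0.25 (SE 0.158, adjusted p 0.425) in MOLM13 and MCM3 at 0.27 (SE 0.219, adjusted p 0.947) in K562 as the largest. Of 6 genes that process NRF1 0 passed, the largest being NGLY1 at -0.08 (SE 0.098, adjusted p 0.741) in MOLM13 and UBQLN2 at 0.56 (SE 0.214, adjusted p 0.947) in K562. Under DMSO, 3 of the 8 genes of other routes were higher in K562 than in MOLM13 and 1 was lower. Of the KEAP1 competitors 0 were higher and 1 lower, and of the NRF1 genes 2 were higher and 0 lower. Over all genes 20.3% were higher and 21.1% lower.

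Around SQSTM1, 2 of 10 partners and autophagy genes rose in MOLM13 with the block and 0 fell, where 141 of all 15031 genes rose and 176 fell. Without the block 0 passed. GABARAPL1, an ATG8-family protein that SQSTM1 binds on autophagosomes, had 8.14 ± 2.98 CPM with DMSO and 16.5 ± 7 CPM with Ro, at 1 on the log2 scale (SE 0.115, adjusted p 4.13e-05). TBK1, a kinase that phosphorylates SQSTM1, went from 19.6 ± 5.21 to 26.5 ± 4.55 CPM, at 0.48 (SE 0.092, adjusted p 0.00624). Both were higher in all 4 pairs. K562 had 0 past the threshold, with GABARAPL1 at 0.36 (SE 0.166, adjusted p 0.947) and higher in all 4 pairs. Under DMSO, 2 of the 10 were higher in K562 than in MOLM13 and 2 lower, beside 20.3% and 21.1% of all genes.

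The NRF2 target list held 36 genes other than the 8, and 31 were tested in MOLM13. This list was written with the earlier results of these data known, so its direction is not independent evidence. With the block 10 rose and 0 fell in MOLM13, where 141 of all 15031 genes rose and 176 fell, and without it 0 passed. The median blocked log2 fold change of the list was 0.223, beside 0.00155 over all genes tested. The 10 were HMOX1 for heme breakdown, SLC48A1 for heme transport, GCLM and SLC7A11 for glutathione synthesis and cystine uptake, NQO1, SRXN1, ME1, PIR, OSGIN1 and TRIM16L. Their blocked values ran from 0.53 for TRIM16L (SE 0.12, adjusted p 0.0232) to 2.51 for HMOX1 (SE 0.28, adjusted p 2.92e-05). HMOX1 went from 32 ± 30.5 to 198 ± 138 CPM.

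In K562 30 of the targets were tested and 0 passed in edgeR with or without the block, beside a list median of 0.127 and 0.0201 over all genes with the block. OSGIN1 had the largest value, 1.7 (SE 0.333, adjusted p 0.947), with 5.32 ± 2.76 CPM with DMSO and 16.5 ± 4.72 CPM with Ro. HMOX1 stood at 1.62 ± 1.01 and 1.51 ± 0.313 CPM, a log2 value of -0.05 (SE 0.325, adjusted p 0.992), so this gene was near its low DMSO level in K562 after Ro. DESeq2 with the block called 2, GCLM and OSGIN1, and edgeR with the block in pairs 1 and 3 alone called 8, all higher. Between the DMSO groups 18 of 31 targets were higher and 5 lower in K562, where 20.3% of all genes were higher and 21.1% lower, the 5 being HMOX1, TRIM16L, TXNRD1, ABCC2 and CES1, of which the last 3 were named after their values were seen.

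**Figure D4:**
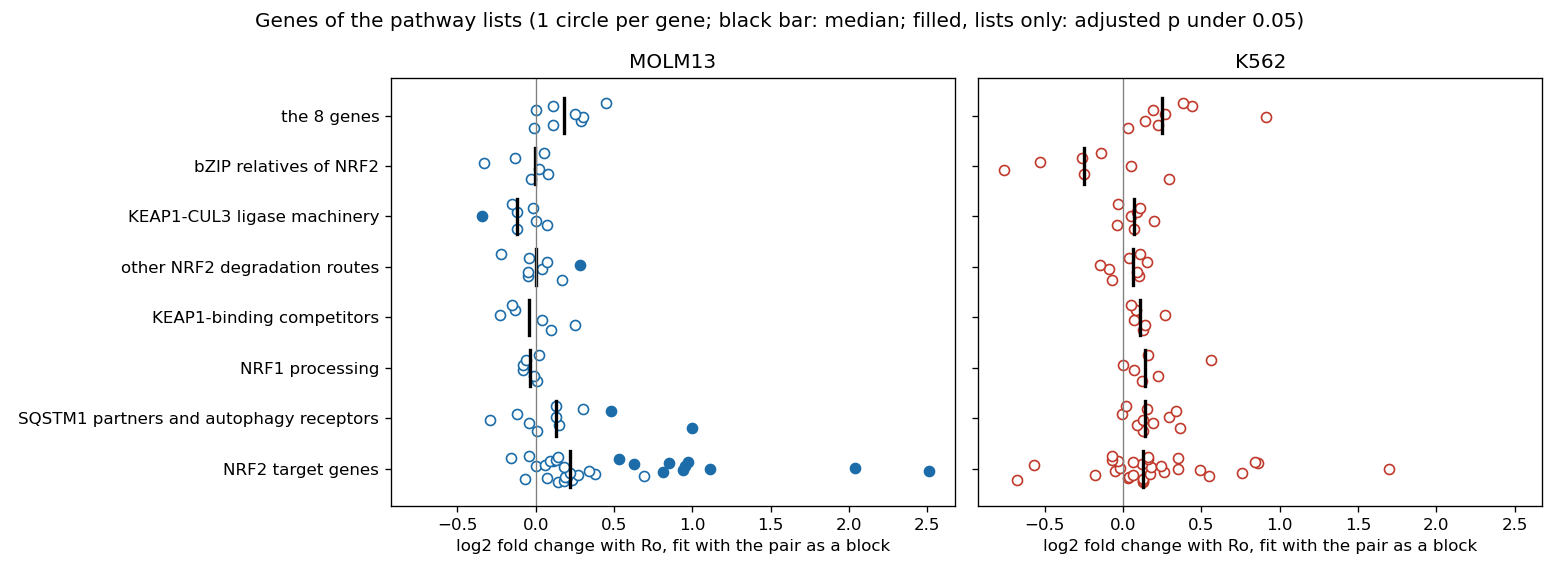
Blocked log2 fold change with Ro for the 8 genes and for each pathway list, 1 circle per gene, in MOLM13 (left) and K562 (right). Black bars are medians, and filled circles among the list genes passed an adjusted p of 0.05 (the 8 genes, given as a description, carry no fill). In MOLM13 the NRF2 target genes extend to 2.51 and 10 are filled, while none is filled in K562.

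Reference promoter sequence was read for the 8 genes to show what lies at their start sites, since some of them are known NRF2 targets. RefSeq promoter windows of GRCh38.p14, 300 bases long and mostly before a start, were at hand for 7 of the 8 genes, in 14 windows. MAFK had no entry. Searched on both strands were the core of the antioxidant response element, TGACNNNGC, the MAF site TGCTGAC, which can share its last 4 letters with that core, and the AP-1 site TGANTCA. Of all 35116 windows, 13.3% held the first, 4.19% the second and 7.71% the third. Among the 14 windows 3 held any match and 11 held none. Each match is given in capitals within its flanks, 5′ to 3′ on the gene's strand, and its position is that of the first capital, negative before the start.

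KEAP1 had 2 element cores in the window chr19:10502722-10503021, at -54 on the gene's strand and at -31 on the other strand, and SQSTM1 and MAFF had 1 match each. No 2 of these matches overlapped. The SQSTM1 match is a MAF site on the other strand, at -198 in chr5:179820655-179820954, and the MAFF match is an element core on the other strand, at -122 in chr22:38201744-38202043.
KEAP1 (first): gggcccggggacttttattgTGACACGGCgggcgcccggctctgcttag
KEAP1 (second): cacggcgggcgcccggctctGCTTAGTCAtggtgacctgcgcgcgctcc
SQSTM1: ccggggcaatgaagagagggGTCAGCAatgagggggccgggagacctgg
MAFF: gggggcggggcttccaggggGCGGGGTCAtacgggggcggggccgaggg

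MAFG, the gene higher in all 8 pairs, had 1 window, chr17:81927686-81927985 on the minus strand, in which none of the 3 motifs was found. This says only that these letters are not in this window.
MAFG: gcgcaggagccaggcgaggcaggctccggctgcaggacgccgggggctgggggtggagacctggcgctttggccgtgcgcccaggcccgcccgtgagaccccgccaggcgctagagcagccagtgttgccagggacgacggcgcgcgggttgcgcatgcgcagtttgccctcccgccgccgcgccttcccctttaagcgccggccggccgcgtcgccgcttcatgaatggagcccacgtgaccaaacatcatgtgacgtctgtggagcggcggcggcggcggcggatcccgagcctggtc

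The genes whose level followed each of the 8 most closely over the 16 libraries, after the mean of each line was taken away, are given as a description. The measure is Pearson's r of log2 CPM over 14320 genes, and the 16 points share their libraries, depth and scaling. NFE2L1 was followed by ATF4, a stress-response transcription factor, at r = 0.983, and by GNL1 at r = 0.952, with both values the same without the K562 DMSO library of pair 4. For NFE2L1 that library, at 72 CPM, was close to the rest of its group, so leaving it out could hardly move these values. The spread of NFE2L1 was wider in MOLM13, from 29 to 73.9 CPM with DMSO, and r without a MOLM13 pair was not computed. SQSTM1 was followed by the NRF2 target GCLM at r = 0.921 and by MIR22HG at r = 0.904. These became 0.916 and 0.892 without the K562 DMSO library of pair 4. KEAP1 was followed by ZNF426 at r = 0.958 and YWHAG at r = 0.952, and CUL3 by PPP5D1 at r = 0.911 and ARHGEF12 at r = 0.907.

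For NFE2L2 and MAFG that 1 library carried much of the likeness. NFE2L2 was followed by CEPT1 at r = 0.975 and ANKRD49 at r = 0.971, which became 0.641 and 0.678 without it. MAFG was followed by BSDC1 at r = 0.937 and NUP153 at r = 0.92, which became 0.769 and 0.678. MAFF, with FAM129C at r = 0.853 and R3HDM2 at r = 0.827, and MAFK, with SLC41A1 at r = 0.817 and BDH2 at r = 0.811, had the lowest top values, and they were also the 2 genes with the fewest counts.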

How the data were processed

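Both lines were profiled by 3′ end sequencing with the QuantSeq FWD kit, in 16 libraries of 4 groups. The authors deposited counts of reads per gene, whole and not normalized, for 25221 genes by Entrez identifier, of which 1425 carry no symbol. 0 sample columns were unused. The submitters' processing notes name Trim Galore, STAR 2.5.3a, SAMtools 1.5 and hg38, and the counting program, its strand setting and its annotation are not given in the sources used here. Line, treatment and pair came from the labels.

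The test of the counts used edgeR 4.0.16 (R 4.3.3; TMM, quasi-likelihood F test, Benjamini-Hochberg adjustment over all genes, threshold 0.05), per line and without the pair number, since the study's methods name no test, on genes that reached 10 counts in 4 or more libraries. A fit with the pair as a replicate block stands beside it. Each SE of an edgeR fit is the absolute log2 fold change divided by the square root of its F statistic, so a change set against its SE repeats that statistic. The titles call the numbers pairs, and DMSO and Ro libraries of a pair deviated together from their group means, with correlations across genes of 0.384 to 0.831 in MOLM13 (mean 0.57, against -0.162 between different numbers) and 0.11 to 0.417 in K562 (mean 0.281, against -0.0927). Nothing says whether libraries came from separate cultures, so p-values measure only the spread between these samples. Log2 changes by pair used a prior count of 2, and 3 counts, 0.067 to 0.872 CPM by library, were taken as the least that tells a gene from 0, for counting error only.

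Alternatives were DESeq2 1.42.0, limma-voom (limma 3.58.1), the block in edgeR and DESeq2, scaling by total count, upper quartile or DESeq2's size factors, a minimum of 50 counts, no filter, leaving out each library or pair, and K562 pairs 1 and 3 alone. The 8 genes and the pathway lists were chosen with earlier results of these data known. Named were the 8 genes, list genes past the threshold in either line with or without the block, the list gene with the largest absolute blocked change in each line, and for each of the 8 the 2 genes with the highest r. Gene coordinates are from GENCODE on GRCh38, which is hg38, and promoters from RefSeq (GRCh38.p14). Tables and plots used Python 3.11.15, pandas 2.3.3 and matplotlib 3.10.9.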

Additional observations from a re-analysis of the deposited data

Results flagged for a closer look

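In each of 32 sets of 4 libraries (8 genes in 4 groups) the highest and the lowest library were compared with the rest by Dixon's ratio, the gap to the nearest library over the whole range, against its 95% limit for 4 values. Chance passes about 1 in 20 such sets. 2 libraries passed, both with DMSO in K562. MAFG was at 30.5 CPM in the library of pair 4, with the other 3 at 79.2 to 85.8 CPM (ratio 0.881). That library held 4383241 counts, the second lowest total, and was lowest of its group for 5 of the 8 genes. NFE2L1 was at 76.7 CPM in the library of pair 2, with the other 3 at 71.6 to 72 CPM (ratio 0.931), a gap that is small in CPM. That library held 3143129 counts, the lowest total. The part of depth in either value was not tested.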

How the results depend on the processing

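Limits are the shallow K562 DMSO libraries of pairs 2 and 4, the choice between fits with and without the pair and, between the lines, the scaling. In MOLM13, 0 genes passed without the block in edgeR, and DESeq2 called 1, an NRF2 target. With the replicate block edgeR called 317 genes and DESeq2 266, with 10 and 7 NRF2 targets, and leaving out a pair moved this to between 49 and 358 genes and between 6 and 12 targets. Leaving out single libraries without the block gave 0. In K562, 0 genes passed in edgeR in both fits, the block in DESeq2 called 2 genes, both NRF2 targets, and pairs 1 and 3 alone called 418 genes with 8 targets. In the comparison of the lines 1 of the 8 genes was called, against 2 with limma-voom, upper-quartile scaling and a minimum of 50 counts (NFE2L1 and CUL3), 3 under total-count scaling and 0 to 2 when a library was left out. The block there gave 2 in edgeR and in DESeq2, NFE2L1 joining at an adjusted p of 0.0454 beside CUL3 at 0.0493. The numbers do not pair the lines, since same-numbered libraries correlated at -0.147 to 0.0562. Signs turned for NFE2L2 (0.26 under total-count scaling, and -0.26 to 0.12 over left-out libraries, positive without K562 DMSO replicate 4) and for MAFF (-0.1 to 0.25 over left-out libraries, negative without MOLM13 DMSO replicate 3, at -0.01, or K562 DMSO replicate 4). The cause was not tested. MAFG kept a positive Ro change in all alternatives run, 0.17 to 0.39 in MOLM13 and 0.57 to 1.03 in K562, as did SQSTM1, at 0.34 to 0.67 and 0.18 to 0.49. So did NFE2L2, at 0.05 to 0.17 and 0.02 to 0.6, and KEAP1, at 0.03 to 0.23 and 0.06 to 0.35. In MOLM13 NFE2L1 (-0.23 to 0.29) and MAFK (-0.04 to 0.49) crossed 0, and MAFF in K562 ran from 0 to 0.35. CUL3 crossed 0 in both lines, at -0.11 to 0.1 and -0.19 to 0.12. Between the lines the block changed no other call of the 8 genes. MAFK was left out by the minimum of 50 counts.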

Other observations

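Levels of the 8 genes were also compared with each other over the 16 libraries, after the mean of each line was taken away, as a description of values that share library, depth and scaling. NFE2L2 and MAFG had the highest Pearson's r of any 2 of the genes, 0.87, which became 0.35 over 15 libraries without the K562 DMSO library of pair 4, where both were at their lowest. NFE2L1 and KEAP1 had r = 0.69 with and without it. CUL3 ran opposite to both, at -0.64 with NFE2L1 and -0.61 with KEAP1, which became -0.79 and -0.75. SQSTM1 and MAFG had r = 0.62, and 0.58 without that library. MAFF and NFE2L2 went from -0.1 to 0.77 when it was left out. In that library NFE2L1 at 72 CPM and KEAP1 at 78.5 CPM were near their group means of 73.1 and 79.3 CPM, so leaving it out could hardly move their r. In MOLM13 both libraries of pair 4 had the highest NFE2L1 and KEAP1 and the lowest CUL3 of their group. How far the r values of these genes rest on that pair was not tested.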
